A study of Mus musculus with 12 samples.

Results

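Mesothelial genes were described in whole lungs of mouse embryos at embryonic day 15.5 (E15.5). The group holds Wt1, Upk3b, Msln, Lrrn4, Upk1b, Bnc1, Gpm6a and Muc16, taken as the rows of the deposited gene table with these 8 symbols, out of 47069 genes. All 8 had enough counts to be tested, among 17843 genes that were tested. RNA-seq was run on 3 conditional knockout (CKO) and 3 wild type (WT) lungs, each sequenced in 2 runs that were summed, and the strain is C57BL/6 in the labels of both groups. The CKO genotype is given as Tgfbr2lox/flox/Tbx4-rtTA/Teto-Cre for replicates 1 and 2 and as Tgfbr2flox/flox/Tbx4-rtTA/Teto-Cre for replicate 3, and the labels name no allele or transgene for WT. Tgfbr2 encodes the type II receptor of transforming growth factor beta (TGF-beta), and Tbx4-rtTA drives the Cre in lung mesenchyme when doxycycline is present. Doxycycline from E6.5, in water (1 mg/ml) and in the diet, is listed for both groups. The sources used here do not say whether Cre acted in the mesothelium. They also do not say whether lungs of a group share a litter, so a p-value here reflects only how far these particular lungs vary.

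The mesothelium is the single layer of flat epithelial cells that covers the lung as visceral pleura and also lines the body wall, heart and gut. In the embryo it forms from mesoderm, makes signals for the lung below it, and can give rise to mesenchymal cells. WT1 is a zinc finger transcription factor of embryonic mesothelium, BNC1 is a zinc finger protein of mesothelium and stratified epithelium, and the uroplakins are membrane proteins first described in bladder epithelium. MSLN (mesothelin) is a surface protein anchored by a lipid that binds the membrane mucin MUC16, known in the clinic as CA125. LRRN4 is a membrane protein with leucine-rich repeats, and GPM6A is a membrane glycoprotein of neurons that mesothelial cells also make.

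Gene counts per lung were 36741615 to 41680516 in CKO and 31983717 to 51572845 in WT, and values below are CPM, a lung's counts divided by its scaled library size. Reads outside annotated features were 11.8% to 17.0% of uniquely mapped reads in CKO and 14.5% to 16.1% in WT, and CKO replicate 1 had the highest share. On the leading principal component CKO replicate 1 lay at -2.41, CKO replicates 2 and 3 at 45.3 and 50.8, and the WT lungs at -34.4 to -28.1. Xist had 61807 or more counts in replicate 1 of both groups and 41 or fewer in the other lungs, so that replicate 1 was female by this RNA. Tgfbr2 had 213 to 239 CPM in CKO and 199.7 to 230.0 CPM in WT lungs (adjusted p = 0.453, edgeR quasi-likelihood test), a count over the whole gene and all cells that does not check the deletion.

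Setting CKO beside WT lungs asks how RNA of these genes in the whole lung differs once Tgfbr2 is targeted by the Cre that Tbx4-rtTA drives. Upk3b was 1.64-fold and Gpm6a 1.27-fold higher in CKO lungs, and these were the members that passed an adjusted p of 0.05 in edgeR's quasi-likelihood test over all genes. Wt1 and Bnc1 had higher values in every CKO lung than in any WT lung and did not pass, Lrrn4 did not pass either, Upk1b and Muc16 had group means close to each other, and Msln had its lowest values in CKO lungs. Of the 8 genes 2 were called higher and 0 lower, where 8.71% of all tested genes were called, 5.64% higher and 3.08% lower. At an unadjusted p under 0.05, which 25.4% of all tested genes had, Wt1, Bnc1 and Lrrn4 were also higher and Msln lower. The CPM of CKO and WT lungs did not overlap for 5 of the 8, with 4 higher in CKO and 1 lower, where 29.9% of all tested genes had no overlap, 15.5% higher and 14.4% lower. The median log2 fold change was 0.34 over the 8 genes and -0.005 over all genes tested. In bulk RNA, more cells of a type and more RNA per cell cannot be told apart.

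**Figure D1:**
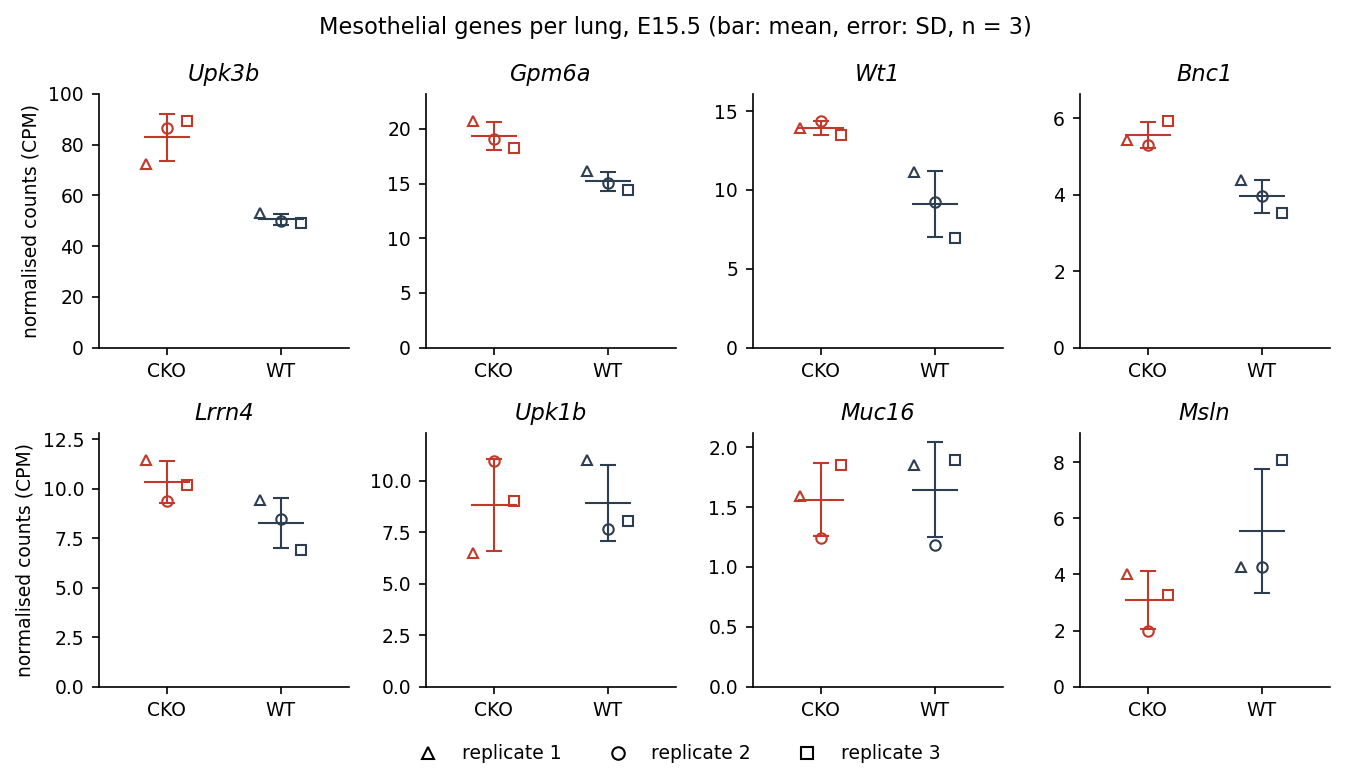
Normalised counts (CPM, y axes from 0) of the 8 mesothelial genes in each CKO and WT lung, with the mean as a bar, the SD as error and the replicate number as the symbol. Upk3b, Gpm6a, Wt1 and Bnc1 lie higher in all 3 CKO lungs than in any WT lung, from 72.4 CPM in CKO against at most 53.0 CPM in WT for Upk3b, and Msln lies lower.

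Among the uroplakins, Upk3b (ENSMUSG00000042985, chromosome 5, 136038496 to 136046487, GRCm38, plus strand) had 72.4, 86.6 and 89.4 CPM in CKO replicates 1 to 3, against 53.0, 49.8 and 49.0 CPM in WT replicates 1 to 3. CKO replicate 1 was the lowest CKO lung and still lay above all WT lungs, which were close together. The means were 82.8 ± 9.11 CPM in CKO and 50.6 ± 2.09 CPM in WT lungs (SD, n = 3 each), a log2 fold change of 0.71 ± 0.08 SE with an edgeR adjusted p of 0.00480. With any 1 lung left out Upk3b still passed, at adjusted p of 0.000142 to 0.0345.

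Upk1b (ENSMUSG00000049436, chromosome 16, 38773184 to 38800328, minus strand), a tetraspanin that pairs with UPK3A in bladder, was not called. It had 6.48, 10.9 and 9.02 CPM in the CKO lungs, against 11.0, 7.65 and 8.05 CPM in the WT lungs. Replicate 1 was the lowest CKO lung and the highest WT lung, so the groups overlapped. The log2 fold change was -0.01 ± 0.21 SE (edgeR adjusted p = 0.986), and it was 0.18 without CKO replicate 1 and 0.17 without WT replicate 1. Per 100 CPM of Upk3b there were 8.94, 12.6 and 10.1 CPM of Upk1b in CKO lungs, against 20.8, 15.4 and 16.4 CPM in WT lungs. Upk3b was itself higher in CKO lungs, so these ratios do not show a fall of Upk1b.

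For the transcription regulators, Wt1 (ENSMUSG00000016458, chromosome 2, 105126529 to 105173616, plus strand) had 13.9, 14.4 and 13.5 CPM in the CKO lungs, against 11.2, 9.21 and 6.97 CPM in the WT lungs. The CKO lungs were within 1 CPM of each other while the WT lungs spread widely, with a coefficient of variation of 3.24% in CKO and 23.1% in WT. The log2 fold change was 0.62 ± 0.16 SE and the edgeR adjusted p 0.0521, so that Wt1 was not called. It passed when CKO replicate 1 (0.0462), WT replicate 1 (0.0429) or WT replicate 3 (0.0408) was left out, and without WT replicate 3 its log2 fold change was 0.46. It did not pass without CKO replicate 2 (0.174), CKO replicate 3 (0.123) or WT replicate 2 (0.168). Nor did it with the share of reads outside features as a covariate (0.0686) or with the second run alone (0.0687). With replicate 1, the female lung of each group, as a covariate Wt1 passed (0.0342). It also passed with limma-voom (adjusted p = 0.0328) and with DESeq2 (0.00171). These tools called 8.92% and 13.1% of all genes they tested.

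Wt1os, an RNA gene on the minus strand, is transcribed away from Wt1, with 18 bases between the annotated starts of the pair, and was chosen after its values were seen. It had 1.92, 1.46 and 1.61 CPM in CKO lungs, against 0.928, 1.36 and 0.838 CPM in WT lungs (edgeR adjusted p = 0.137). In GENCODE M21 the pair share no bases.

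Bnc1 (ENSMUSG00000025105, chromosome 7, 81966672 to 81992292, minus strand) had 5.43, 5.29 and 5.94 CPM in the CKO lungs, against 4.38, 3.97 and 3.53 CPM in the WT lungs. Every CKO lung lay above every WT lung. The log2 fold change was 0.49 ± 0.13 SE, with an edgeR adjusted p of 0.0568, so that Bnc1 was not called. It passed with limma-voom (0.0456), with DESeq2 (0.0275) and with scaling to the total count (0.0487), and did not with any 1 lung left out (0.0530 to 0.187).

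Of the membrane proteins, Gpm6a (ENSMUSG00000031517, chromosome 8, 54954843 to 55060871, plus strand) had 20.7, 19.1 and 18.2 CPM in the CKO lungs, against 16.1, 15.1 and 14.4 CPM in the WT lungs. The groups did not overlap, with a step between them that was narrower than the range within CKO. The log2 fold change was 0.35 ± 0.08 SE (edgeR adjusted p = 0.0406). The call held with CKO replicate 1 left out (0.0460). It was lost when CKO replicate 2 (0.126) or 3 (0.0690) was left out, and likewise for WT replicate 1 (0.0782), 2 (0.162) or 3 (0.0619). The call was also lost with the second run alone (0.0567) and with replicates 2 and 3 only (0.0538).

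Because Gpm6a is also a neuronal gene, markers of neurons and Schwann cells were set beside it. Of 12 tested, 1 rose and 0 fell, where 5.64% of all tested genes were called higher and 3.08% lower. Their median log2 fold change was -0.10, and their summed level was 69.0 to 85.4 CPM in CKO and 57.0 to 73.9 CPM in WT lungs. The marker that rose was Gap43, a growth cone protein gene, at 23.7, 24.7 and 22.5 CPM in CKO lungs, against 10.8, 7.69 and 7.98 CPM in WT lungs (edgeR adjusted p = 0.00194). Levels differed widely within the list. Uchl1, a ubiquitin hydrolase gene of neurons, had 34.0, 28.8 and 23.4 CPM in CKO lungs, against 33.2, 28.6 and 25.1 CPM in WT lungs (0.984). Elavl3, an RNA-binding protein gene of neurons, had 0.398, 0.162 and 0.119 CPM in CKO lungs, against 0.768, 0.526 and 0.419 CPM in WT lungs (0.138), so that its groups did not overlap. What neurons contribute to Gpm6a was not tested.

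Lrrn4 (ENSMUSG00000043110, chromosome 2, 132868305 to 132880891, minus strand) had 11.5, 9.37 and 10.2 CPM in the CKO lungs, against 9.44, 8.45 and 6.92 CPM in the WT lungs. The lowest CKO lung lay just under the highest WT lung. The log2 fold change was 0.32 ± 0.14 SE (edgeR adjusted p = 0.186), and none of 17 other settings brought it under 0.05.

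The binding pair of the mesothelial surface showed no call. Msln (ENSMUSG00000063011, chromosome 17, 25748613 to 25754378, minus strand) had 4.01, 1.97 and 3.25 CPM in the CKO lungs, against 4.26, 4.28 and 8.09 CPM in the WT lungs. WT replicate 3 stood well above the others and CKO replicate 2 well below, while CKO replicate 1 lay close to WT replicates 1 and 2. The log2 fold change was -0.85 ± 0.33 SE (edgeR adjusted p = 0.157), on 73 to 367 counts per lung. Without WT replicate 3 it was -0.46, without CKO replicate 2 it was -0.61, and of 17 other settings DESeq2 alone passed (0.0426).

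Muc16 had 1.59, 1.24 and 1.85 CPM in the CKO lungs, against 1.86, 1.19 and 1.90 CPM in the WT lungs, from 46 to 86 counts per lung. The groups overlapped almost fully (log2 fold change -0.06 ± 0.25 SE, edgeR adjusted p = 0.909), and the SE was wider than the 0.08 of Gpm6a. The deposited row, ENSMUSG00000032134, stands for a model of 1044 bases. The gene as annotated in GENCODE M21 has another identifier, spans chromosome 9, 18495455 to 18674530, on the minus strand, and has 26350 bases of exon, so the count covers a small part of it.

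**Figure D2:**
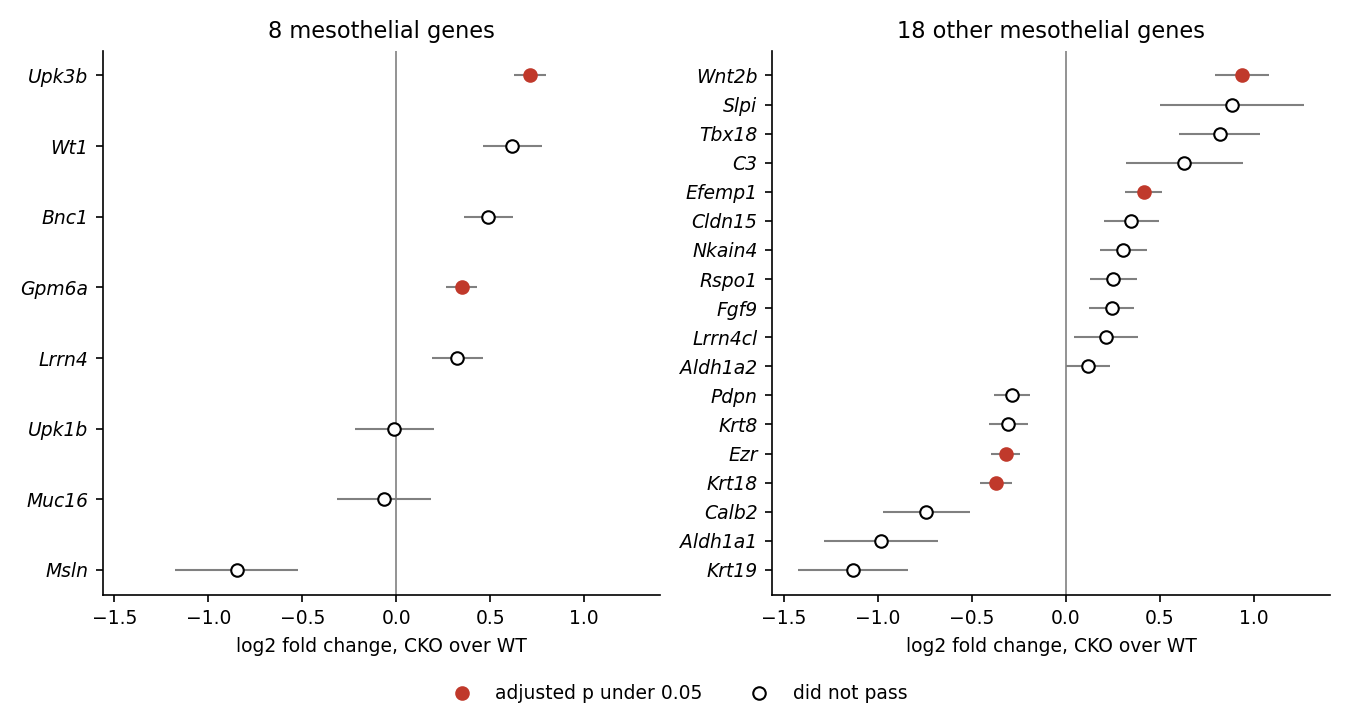
Log2 fold change of CKO over WT (x axis, points with SE) for the 8 mesothelial genes at left and 18 other mesothelial genes at right, filled where the edgeR adjusted p is under 0.05. Upk3b at 0.71 and Gpm6a at 0.35 are filled at left, and 2 genes on each side of 0 are filled at right.

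The sequences before the starts of the members that were called, with Bnc1 and Lrrn4 for comparison, are shown to let the called genes be compared by sequence. RefSeq's table for GRCm38.p6 gave 6 starts for 5 of the members (Upk3b, Gpm6a, Bnc1, Lrrn4 and Muc16). The 250 bases upstream are printed 5′ to 3′ on the gene's strand, without those of Muc16 and of the other Gpm6a start. Capitals mark GGAATG or its reverse complement CATTCC, the core bound by TEAD factors, and GGGCGG or its reverse complement CCGCCC, the GC box bound by SP factors.
Upk3b, chr5:136038246-136038495, plus strand: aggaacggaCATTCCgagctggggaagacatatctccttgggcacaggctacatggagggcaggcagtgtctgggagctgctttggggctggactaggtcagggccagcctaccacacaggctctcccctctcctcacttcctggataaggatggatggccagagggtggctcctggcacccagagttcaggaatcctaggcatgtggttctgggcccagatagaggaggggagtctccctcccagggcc
Gpm6a, the upstream of its 2 starts, chr8:54779184-54779433, plus strand: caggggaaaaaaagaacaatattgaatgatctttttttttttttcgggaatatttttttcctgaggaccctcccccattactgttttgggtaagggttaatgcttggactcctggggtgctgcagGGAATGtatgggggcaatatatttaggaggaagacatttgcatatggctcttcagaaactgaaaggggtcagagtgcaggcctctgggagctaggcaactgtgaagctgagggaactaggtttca
Lrrn4, chr2:132880863-132881112, minus strand: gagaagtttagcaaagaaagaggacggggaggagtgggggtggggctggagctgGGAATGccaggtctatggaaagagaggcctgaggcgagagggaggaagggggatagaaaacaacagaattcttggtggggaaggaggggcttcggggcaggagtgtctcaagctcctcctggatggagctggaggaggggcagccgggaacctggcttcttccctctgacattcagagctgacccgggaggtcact
Bnc1, chr7:81992300-81992549, minus strand: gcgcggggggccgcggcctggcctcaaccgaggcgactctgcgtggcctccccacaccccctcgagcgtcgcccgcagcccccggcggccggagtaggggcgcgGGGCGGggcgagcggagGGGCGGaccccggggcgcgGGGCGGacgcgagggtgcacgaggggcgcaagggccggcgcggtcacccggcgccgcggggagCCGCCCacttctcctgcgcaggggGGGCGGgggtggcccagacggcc

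These windows differed widely. The upstream Gpm6a start, whose window ends at 54779433, lies far outside the span of the gene in GENCODE M21, which begins at 54954843. The other Gpm6a start is close to that span, and its window (chr8:54954478-54954727, not printed) had no GGAATG. The window of Bnc1 was 83.6% G and C with 39 CpG and 5 GC box matches. Those of Upk3b and Lrrn4 were 60.8% and 59.2% G and C with 2 and 5 CpG. That of the upstream Gpm6a start was 44.4% with 1 CpG, and that of the other Gpm6a start 33.6% with 3 CpG. The median over 32851 promoter windows of the same length was 52.4% and 6 CpG. GGAATG was found on either strand in 3 of the 6 windows, those of Upk3b, Lrrn4 and the upstream start of Gpm6a, and in 12.6% of all windows. GGGCGG was found in 1 of the 6 and in 32.7% of all. TATAAA was found in 1 of the 6, the window of the other Gpm6a start, and in 12.4% of all. The motifs were chosen with the sequences in view, and a match is a description of letters.

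Per length of exon, Upk3b was by far the most abundant member, at 23.5 ± 2.58 CPM per kilobase in CKO and 14.3 ± 0.593 in WT lungs (SD, n = 3 each). In CKO lungs it was followed by Gpm6a (6.02), Upk1b (4.22), Lrrn4 (2.78), Wt1 (2.25), Muc16 (1.497), Bnc1 (1.20) and Msln (1.00), all mean CPM per kilobase. The ranges of neighbours in this order overlapped for Muc16 with Bnc1 and for Bnc1 with Msln. In WT lungs the order was Upk3b, Gpm6a (4.73), Upk1b (4.26), Lrrn4 (2.23), Msln (1.81), Muc16 (1.58), Wt1 (1.47) and Bnc1 (0.853). There the ranges overlapped for Gpm6a with Upk1b, Lrrn4 with Msln, Msln with Muc16, and Muc16 with Wt1. Msln stood at position 8 in CKO lungs and at position 5 in WT lungs. By the authors' deposited values per kilobase (RPKM) it stood at position 6 in CKO and position 4 in WT lungs. The value of Muc16 uses the 1044 bases of its deposited model. For the other members the counts rest on the authors' annotation and the lengths on GENCODE M21. A level is therefore uncertain where the authors' length differs, as for Wt1 (15600 against 6195 bases) and Msln (2130 against 3064).

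**Figure D3:**
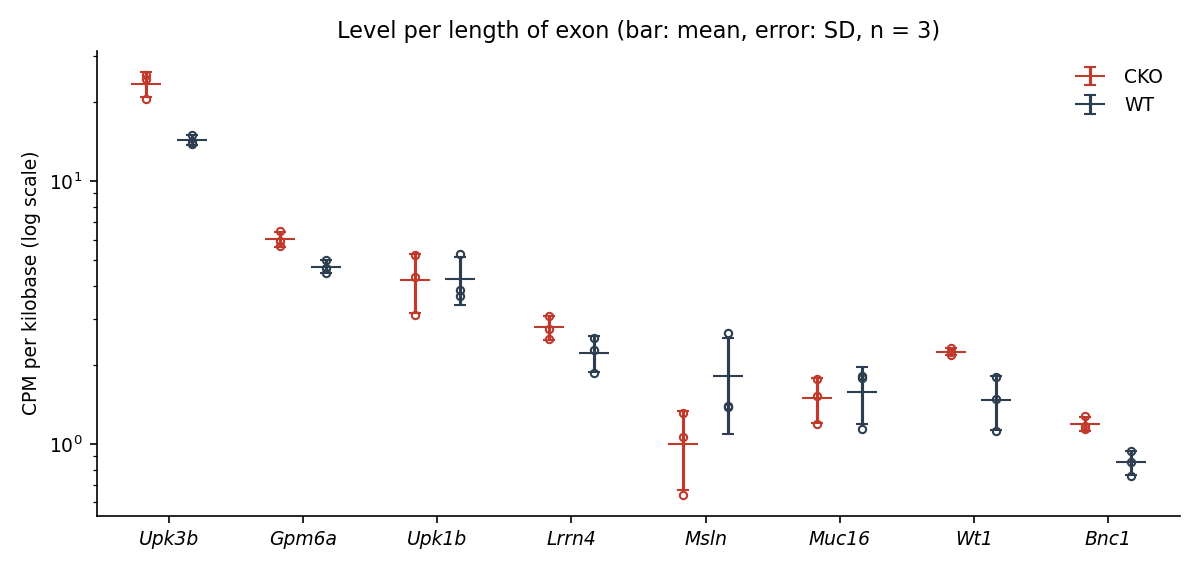
Level of each mesothelial gene in CPM per kilobase of exon (log scale), with each lung as a point, the mean as a bar and the SD as error, CKO left of WT for each gene. Upk3b lies above all others in both groups, at 23.5 in CKO and 14.3 in WT, and the remaining genes lie between 0.6 and 6.5.

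The members did not share 1 profile over the lungs. Their summed level was 136, 149 and 151 CPM in CKO lungs, against 111, 99.6 and 98.9 CPM in WT lungs, and Upk3b made up 53.2% to 59.1% of it in CKO and 47.6% to 49.98% in WT. The geometric mean, in which each gene counts alike, was 9.26, 8.66 and 9.60 CPM in CKO lungs, against 8.75, 7.40 and 7.88 CPM in WT lungs, so that CKO replicate 2 fell below WT replicate 1. WT replicate 3 was the lowest lung for 5 of the 8 genes and the highest for 2, Msln and Muc16. The root-mean-square difference from the members' mean profile was 0.12 for Gpm6a, 0.15 for Lrrn4, 0.17 for Bnc1, 0.25 to 0.29 for Muc16, Upk3b, Wt1 and Upk1b, and 0.67 for Msln, on the log2 scale. Per 100 CPM of Upk3b, Msln had 5.53, 2.27 and 3.64 CPM in CKO lungs, against 8.04, 8.60 and 16.5 CPM in WT lungs. Wt1 had 19.2, 16.6 and 15.1 CPM per 100 of Upk3b in CKO lungs, against 21.1, 18.5 and 14.2 CPM in WT lungs. The groups overlapped in this ratio and not in those of Msln and Upk1b. Upk3b, the divisor, was itself higher in CKO lungs, so a gene with like levels in both groups has a lower ratio in CKO. How many other genes would not overlap in such a ratio was not counted. These 3 ratios were chosen after the values were seen.

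The genes nearest to the members' mean profile over the 6 lungs were Dnm3, H19, 2810403D21Rik, Tstd3 and Phactr2, out of 14471 with a mean of at least 1 CPM. Their root-mean-square differences were 0.043 to 0.051 on the log2 scale, the smallest of all genes ranked. The members were not picked by this distance, so their differences cannot be set against these values. Phactr2, a phosphatase and actin regulator gene, was called, at 1.17-fold higher in CKO lungs (edgeR adjusted p = 0.0379). It lost that call when CKO replicate 2 (0.113), CKO replicate 3 (0.115), WT replicate 1 (0.0766) or WT replicate 2 (0.142) was left out. The call was also lost with the share of reads outside features as a covariate (0.0837) and narrowly with the first run alone (0.05002). Dnm3, H19, 2810403D21Rik and Tstd3 were not called. These genes were picked for matching a profile built from the same CKO and WT lungs, so their tests are not independent of that choice.

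Other genes that mesothelium is known to make went both ways. Of 18 tested, 2 rose, 2 fell and 14 did not pass, where 5.64% of all tested genes were called higher and 3.08% lower. The median log2 fold change was 0.23, with 11 of the 18 above 0 and 7 below. Their summed level was 543 to 659 CPM in CKO and 690 to 759 CPM in WT lungs. Genes with high levels, Ezr most of all, weighed most on this sum. The CPM of CKO and WT lungs did not overlap for 3 genes higher in CKO and 6 lower. Over all tested genes 15.5% had no overlap and were higher, and 14.4% lower. Wnt2b, a WNT ligand gene of mesothelium and mesenchyme, rose 1.92-fold, with 16.3, 20.6 and 21.1 CPM in CKO lungs, against 10.5, 11.4 and 8.38 CPM in WT lungs (edgeR adjusted p = 0.0109). Efemp1, an extracellular matrix glycoprotein gene, rose 1.33-fold (0.0404). Krt18, a simple keratin gene, fell to 86.6 ± 10.9 CPM in CKO lungs, against 112 ± 5.24 CPM in WT lungs (0.0389), and Ezr, the ezrin gene of microvilli, fell to 134 ± 11.7 CPM in CKO lungs, against 168 ± 12.9 CPM in WT lungs (0.0438; SD, n = 3 each). Without CKO replicate 2 Wnt2b was not called, and none of the 18 was. Efemp1 also lost its call when CKO replicate 3 or either of WT replicates 1 and 2 was left out, and Krt18 and Ezr passed without CKO replicate 1 only, among the fits with 1 lung left out. For Efemp1 the call was lost too with the first run alone (0.0694) and with replicates 2 and 3 only (0.0849). With the share of reads outside features as a covariate Efemp1 did not pass either (0.0512). Ezr also lost its call with the replicate block (0.0678), with scaling to the total count (0.0574) and with the share of reads outside features as a covariate (0.0886).

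Keratins and ezrin are made by all lung epithelium, whose markers were therefore set beside them. Of 9 tested lung epithelial markers 0 rose and 3 fell, with a summed level of 1700 to 2039 CPM in CKO and 2197 to 2794 CPM in WT lungs, and of 5 tested airway secretory and basal markers 0 rose and 3 fell, with 5.35 to 32.8 CPM in CKO and 58.5 to 99.998 CPM in WT lungs. Over all tested genes 5.64% were called higher and 3.08% lower. Single genes weighed on the lung epithelial sum. Sftpc had a mean of 605 CPM in CKO and 961 CPM in WT lungs, while Nkx2-1 had 322 and 287 CPM and Sftpb 126 and 56.1 CPM. Of the 9 genes 2 had a log2 fold change above 0 and 7 below. The sum therefore does not measure how much epithelium was present. The part of lung epithelium in the values of Krt18 and Ezr was not tested.

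Relatives of the members were compared gene by gene. Of 13 tested, 2 rose, 2 fell and 9 did not pass, where 5.64% of all tested genes were called higher and 3.08% lower. Gpm6b, the paralog of Gpm6a, rose 1.41-fold, with 113, 124 and 125 CPM in CKO lungs, against 88.1, 81.2 and 88.1 CPM in WT lungs (edgeR adjusted p = 0.00453). Upk3a, the paralog of Upk3b found in bladder and in a subset of airway cells, fell, with 13, 1 and 0 counts in CKO lungs, against 29, 58 and 99 counts in WT lungs (0.0370). Upk3a is also in the list of airway markers above. Of the genes related to Lrrn4, Lrrn3 rose 1.25-fold (0.0275), and Lrrn1 fell to 13.7 ± 4.93 CPM in CKO lungs, against 29.1 ± 5.23 CPM in WT lungs (0.0354; SD, n = 3 each). With 1 lung left out at a time Gpm6b kept its call each time (adjusted p at most 0.0324). Upk3a and Lrrn1 kept theirs only with CKO replicate 1 left out (0.00156 for Upk3a and 0.00131 for Lrrn1). Upk3a also lost its call with the replicate block (0.0612) and with DESeq2 (0.0736). Lrrn3 lost its call when CKO replicate 2 (0.120), CKO replicate 3 (0.103) or WT replicate 2 (0.127) was left out. The call of Lrrn3 was also lost with the first run alone (0.0565) and with the share of reads outside features as a covariate (0.0518).

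Markers of other cell types were counted in the same test, in which 5.64% of all tested genes were called higher and 3.08% lower. Of those tested, 4 of 5 endothelial, 4 of 5 leukocyte and 3 of 5 red blood cell genes rose, 2 of 6 smooth muscle genes fell, and of 9 lung mesenchyme genes 1 rose and 3 fell. Heart and pericardium, body wall and gut carry mesothelium too. Heart muscle markers summed to 30.9 to 78.8 CPM in CKO and 76.8 to 103 CPM in WT lungs (0 of 5 tested rose or fell), and liver markers to 0.996 to 3.54 CPM in CKO and 1.68 to 4.52 CPM in WT lungs (0 of 3). Markers of skeletal muscle summed to 2.89 to 7.55 CPM in CKO and 1.57 to 2.21 CPM in WT lungs (1 of 4 rose, Pax7), and those of squamous epithelium to 1.19 to 2.02 CPM in CKO and 3.97 to 5.73 CPM in WT lungs (0 of 2). No marker in these lists was at 0 counts in all 6 lungs. Single genes weighed on these sums. The heart gene Actc1 had a mean of 19.1 CPM in CKO and 47.2 CPM in WT lungs, while Myl7 had 12.3 and 13.0 CPM. Pax7 had a mean of 4.31 CPM in CKO and 0.0434 CPM in WT lungs, and the squamous gene Krt4 had 0.166 and 1.85 CPM. Such a sum therefore does not measure how much of a tissue was present. What tissue beside the lung contributed to the mesothelial values was not tested.

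**Figure D4:**
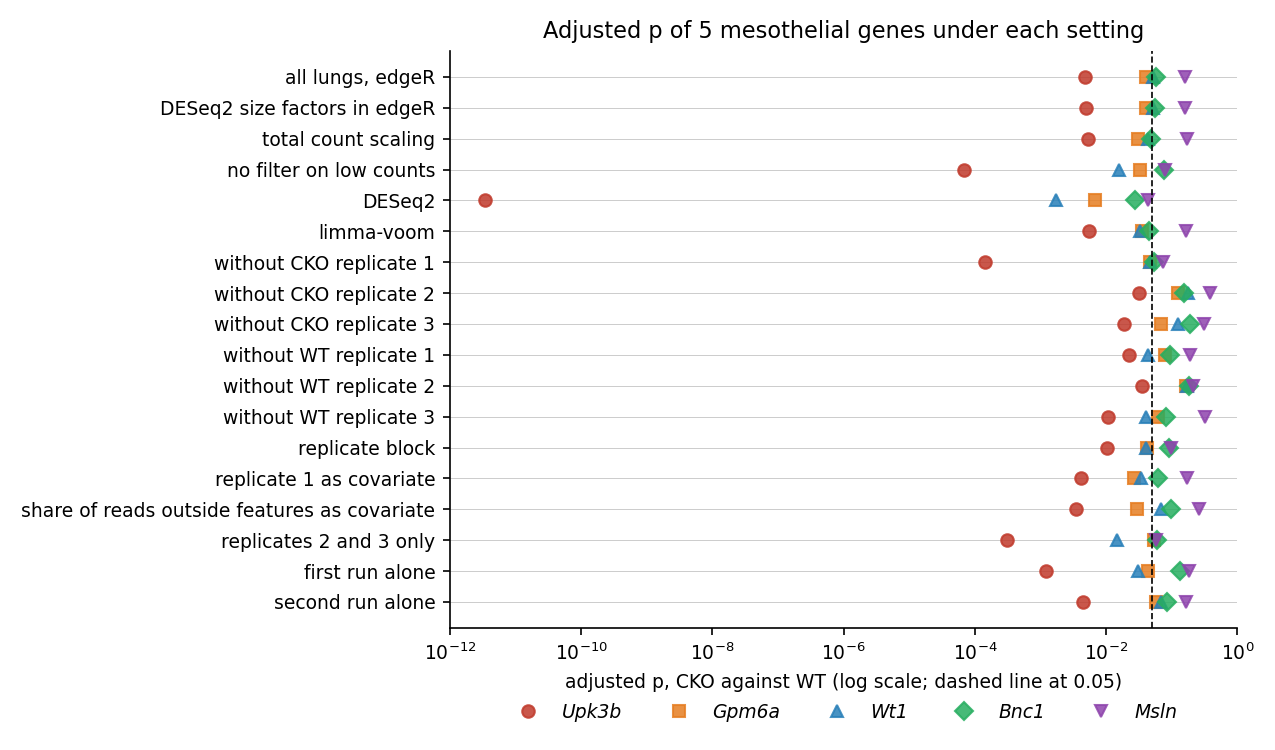
Adjusted p (x axis, log scale, dashed line at 0.05) of Upk3b, Gpm6a, Wt1, Bnc1 and Msln for CKO against WT, with all lungs in edgeR in the top row and 1 change of processing or 1 lung left out in each other row. Upk3b lies left of the line in every row, at most 0.0345, while Gpm6a, Wt1 and Bnc1 lie on either side of it.

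In the authors' deposited table, Upk3b (log2 fold change 0.7077, adjusted p = 1.033e-05), Msln (-0.8336, 5.141e-05), Wt1 (0.6312, 0.001532) and Bnc1 (0.492, 0.02201) were under 0.05, where 12.0% of its 19683 genes were. The authors' deposited table did not have Gpm6a (0.3461, 0.0735), Lrrn4, Muc16 or Upk1b under 0.05. The fold changes in the authors' deposited table lay close to those from edgeR above, and the sources used here do not say how a lung's runs entered that fit.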

How the data were processed

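The deposited gene table holds raw counts per gene and run, with RPKM beside them. Per the submitters' processing notes, the authors used cutadapt 1.13, Trimmomatic 0.35, STAR 2.5.2b, HTSeq 0.6.1p2 and GRCm38; GENCODE M8 is named as annotation, per the file headers. RPKM as deposited by the authors were used for 1 comparison of levels only. A deposited table gives the authors' log2 fold change and p-value (raw and adjusted) for each gene; edgeR 3.16.5 is in the same notes. Another 24 columns of per-sample values in that table were not used. Shares of reads outside features are from read counts in the authors' deposited alignment table.

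Spike-ins (92 entries, 0.498% to 0.595% of counts) were left out, and the 2 runs of a lung were summed. Counts were tested with edgeR 4.0.16 in R 4.3.3 (quasi-likelihood F test, TMM, filterByExpr with a minimum count of 10, Benjamini-Hochberg adjustment over 17843 genes, calls at an adjusted p under 0.05), with group as the single factor over 6 lungs; alternatives used DESeq2 1.42.0 and limma-voom 3.58.1. The procedure was tested on simulated data. Lengths and positions are from GENCODE M21, on the same assembly, in which 98.8% of gene identifiers were found.

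The members, gene lists and tests were chosen with earlier results of these data known. Named genes are the members, Tgfbr2 and up to 4 genes with the smallest p of each list. The 5 genes nearest to the members' mean profile are also named. Values are printed for these named genes of the mesothelial list, the relatives and the neuronal list, and not for every gene in them. Other lists are given as counts and sums, with means of Actc1, Myl7, Pax7 and Krt4. Wt1os, Uchl1 and Xist fall outside this rule and were chosen after their values were seen. A withheld item is not reported here.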

Additional observations from a re-analysis of the deposited data

How the results depend on the processing

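Among the members, Upk3b alone held its call throughout, higher in 17 of 17 alternatives. Of the other named genes, Gpm6b and Gap43 also kept their calls in every alternative. The number of members called higher, 2 in edgeR with all lungs, was 4 with scaling to the total count, DESeq2 or limma-voom and 1 with the second run alone; DESeq2 called 1 member lower, Msln. With 1 lung left out, 1 to 3 members were called higher and 0 lower. Over all genes, 1006 were higher and 549 lower; the lower calls were 884 with no filter on low counts, 984 with DESeq2 and 1051 with replicates 2 and 3 only. With 1 lung left out, 162 to 1713 genes were higher and 90 to 1185 lower; the highest counts came when CKO replicate 1 was left out and the lowest when WT replicate 2 was, with 90 lower genes also when CKO replicate 2 was.

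With the replicate number as a block, 3 members (Wt1 besides Upk3b and Gpm6a) and 1087 genes were higher and 693 lower, while Ezr (0.0678) and Upk3a (0.0612) lost their calls. With replicate 1 as covariate the counts were 3 members, 1195 and 778. Replicate 1 was female by Xist in both groups; beyond that the numbers were not shown to pair the lungs, since the correlation of deviations between same-numbered lungs was 0.102, 0.0887 and 0.0365.

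Members near 0 changed sign. Upk1b had a log2 fold change of 0.011 with scaling to the total count, 0.0017 with limma-voom, 0.34 with replicates 2 and 3 only, 0.016 with the second run alone, and -0.19 to 0.18 with 1 lung left out. Muc16 had 0.015 with replicates 2 and 3 only and -0.26 to 0.080 with 1 lung left out. Of 407 comparisons of a named gene with an alternative, 330 kept their direction and side of the threshold, 51 lost the call, 16 gained it and 10 changed sign; where a call changed, the cause was not tested.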

Other observations

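The order of the members by level depended on the length used. The authors' RPKM of Wt1 rests on a length of 15600 bases, where the merged exons of GENCODE M21 have 6195, and by the deposited RPKM Wt1 stood at position 8 of 8 in both groups, against position 5 in CKO and position 7 in WT lungs by merged exons. The authors' length of Msln is 2130 bases, where the merged exons have 3064. By the deposited RPKM Msln stood at position 6 in CKO and position 4 in WT lungs. In WT lungs Upk1b stood at position 2 and Gpm6a at position 3 by the deposited RPKM. For Upk3b both lengths were close, 3536 and 3530 bases.

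Between the 2 runs of a lung, CPM of Upk3b differed by a ratio of 0.990 to 1.06 and those of Gpm6a by 0.895 to 1.01, while those of Msln differed by 0.805 to 1.65 and those of Muc16 by 0.728 to 1.45.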
